A study of Homo sapiens with 6 samples.

Results

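The genes described here encode respiratory complex I and part of the machinery that builds it. They were chosen by symbol, from the numbered genes of the NDUFA, NDUFB, NDUFC, NDUFS, NDUFV, NDUFAB and NDUFAF series. The choice holds 45 of the 17170 genes measured: 7 core subunits, 29 accessory subunits, 8 assembly factors of the NDUFAF series, and NDUFA4, which keeps its historical symbol but is a subunit of complex IV. The study engineered NCI-H69, an established human small cell lung cancer line, with CRISPR/Cas9. The groups were 3 libraries of cells given a non-targeting control sgRNA and 3 of stable SCRMP knockout cells, in which the MIR7-3HG ORF/SCRMP coding sequence was targeted. Polyadenylated RNA was sequenced from cells grown in RPMI-1640 with fetal bovine serum and antibiotics, and the labels place all libraries in 1 batch. The values below are those of the control libraries, replicates 1, 2 and 3, because no column of the deposited table carries the name that the labels give a knockout library. The labels do not say whether the engineered cells were 1 clone or a mixed population, nor how the biological replicates were separated, so each SD measures the spread between these libraries, which may be technical.

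Complex I (NADH:ubiquinone oxidoreductase) is the entry point of electrons from NADH into the mitochondrial respiratory chain, and it couples their transfer to ubiquinone with the pumping of protons across the inner membrane. The nuclear core subunits form most of its matrix arm and hold the flavin and the iron-sulphur clusters. The core subunits of the membrane arm are encoded by mitochondrial DNA and were not analysed here. Accessory subunits surround and stabilise the core, and assembly factors help to build the complex but are absent from the finished enzyme.

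The control libraries held 20941185, 22309228 and 22477571 estimated reads in replicates 1, 2 and 3, and their values correlated across genes with Pearson's r of 0.997 to 0.998. The labelled cell type was checked against its markers. Of 6 measured neuroendocrine markers, 1 reached 1 TPM (length-scaled transcript share) in every library: NCAM1 at 25.7 TPM ± 3.66 (SD, n = 3). SYP, INSM1, NEUROD1 and DLL3 were below 1 TPM, and CHGA, at 0.08 TPM, had at most 2 reads in a library. The list summed to 23.2 to 30.6 TPM. All 5 mesenchymal markers were detected and summed to 6231 to 6270 TPM. The 3 epithelial markers summed to 1.21 to 1.58 TPM with 0 detected. The 3 leukocyte markers summed to 6.45 to 8.97 TPM with 1 detected. That was CORO1A at 7.49 TPM ± 1.03, while PTPRC was at 0.517 TPM and CD74 at 0. The levels below are therefore those of libraries labelled NCI-H69 control whose neuroendocrine markers were mostly absent, and the part of cell identity in them was not tested.

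Transcripts of complex I were abundant, and those of its assembly factors were several-fold less so. A TPM value is a gene's share of all reads after division by transcript length. All 45 members reached 1 TPM in all 3 libraries, where 66.5% of all genes did, and all 45 reached 10 TPM, where 42.5% did. At 100 TPM the count was 26 of 45, beside 7.78% of all genes. Those 26 were 6 of 7 core subunits, 18 of 29 accessory subunits, 1 of 8 assembly factors (NDUFAF2) and NDUFA4. The members together took 0.742%, 0.733% and 0.752% of all TPM in replicates 1, 2 and 3.

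The median core subunit stood at 191, 189 and 205 TPM in replicates 1, 2 and 3. The median accessory subunit stood at 155, 153 and 143 TPM. Among assembly factors the median was 31.7, 32.6 and 29.8 TPM, and the median of all genes in the table was 6.83 TPM ± 0.461. In each library the core median was the highest of the 3 classes and the assembly factor median the lowest. On the log2(TPM + 1) scale the core median exceeded that of assembly factors by 2.60 ± 0.12 (SD, n = 3), which is 6.08-fold, and the accessory median exceeded it by 2.23 ± 0.03, or 4.70-fold. Core exceeded accessory subunits by only 0.37 ± 0.12, with 0.30, 0.30 and 0.51 in replicates 1, 2 and 3. Each of these differences was larger than its spread between libraries, but the genes of every pair of classes overlapped in range: 9 of 29 accessory subunits lay above the core median. None of the assembly factors did (0 of 8), and 0 of 8 lay above the accessory median of 149 TPM. The gap between core and accessory subunits also depended on how a class is summarised, since means of the log2 values put it at 0.18 in place of 0.37. In bulk RNA, fewer cells of a type and less RNA per cell cannot be told apart.

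Promoters of 40 of the 45 members were found in RefSeq (GRCh38.p14) as windows from 250 bases before to 50 bases after the start of transcription, 52 windows in all. NDUFS5, NDUFC2, NDUFB5 and NDUFAF6 were among the 5 members with no entry. The windows were searched on both strands for exact letters of 4 factors known to act on nuclear genes of respiration: GCGCATGCG for NRF1, CCGGAAGT for the ETS family member GABPA, AAGATGGCG for YY1 and TCAAGGTCA for ESRRA. No matches of different motifs overlapped (0 cases). At least 1 of the 4 was present in 14 of 40 members (35.0%), beside 9.17% of the 27305 genes of the promoter table and 14.3% of the 13708 of those that are also in the expression table. A match is a description of letters and does not show binding, and its absence says only that the letters are not in the window.

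The NRF1 letters, nearly a palindrome, were in 6 of 40 members (15%), beside 2.34% of all genes with a window and 3.52% of those in the expression table. They began at positions -159 to -3 relative to the start site, in windows of which 250 of the 300 bases lie before it. The stretches of 30 bases around them are shown because they let the shared core be read beside its varied surroundings. Each is written 5′ to 3′ on the strand of its gene, with the match in capitals:
NDUFA5, chr7:123557957-123557986, minus strand: tatgcccatcGCGCATGCGtcaatttttct
NDUFA8, chr9:122159764-122159793, minus strand: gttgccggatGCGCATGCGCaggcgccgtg
NDUFAF5, chr20:13785014-13785043, plus strand: agccgcgctgGCGCATGCGCacaaaaagcg
NDUFB4, chr3:120596167-120596196, plus strand: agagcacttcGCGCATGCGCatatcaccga
NDUFS6, chr5:1801351-1801380, plus strand: cagaagccgtGCGCATGCGttagcgctaag
NDUFS7, chr19:1383823-1383852, plus strand: ttccggtttcCGCATGCGCtccgagccgct
In NDUFA8, NDUFAF5 and NDUFB4 the letters matched on both strands, 1 base apart, so the capitals run 1 base longer. In NDUFS7 the match is on the opposite strand and appears as its reverse complement. These 6 genes ranged from 21.3 TPM (NDUFAF5) to 258 TPM (NDUFS7), and their median of 159.95 TPM stood near the 148 TPM of the 34 other members with a window.

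The YY1 letters were in 7 of 40 members (17.5%), beside 2.14% of all genes with a window and 3.65% of those in the expression table. Their place was the same throughout: in all 7 they read in the direction of the gene and began 9 to 25 bases after the start site. Among the 614 windows of the whole promoter table that hold these letters, 54.1% had them in that direction after the start. The letters contain ATG, and in 6 of the 7 members (all but NDUFAF8) this ATG is an annotated start codon in GENCODE release 29. The same was true of 225 of the 332 such windows in the whole table (67.8%). The stretches are shown so that the common letters can be compared, with the match in capitals:
NDUFS7, chr19:1383914-1383943, plus strand: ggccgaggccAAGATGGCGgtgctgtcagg
NDUFS4, chr5:53560650-53560679, plus strand: tgcctgcagcAAGATGGCGgcggtgtcaat
NDUFA6, chr22:42090728-42090757, minus strand: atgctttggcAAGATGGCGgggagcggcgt
NDUFA7, chr19:8321342-8321371, minus strand: tcgcggacggAAGATGGCGtccgccacccg
NDUFA9, chr12:4649114-4649143, plus strand: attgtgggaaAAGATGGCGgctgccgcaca
NDUFB8, chr10:100529835-100529864, minus strand: gaagaaggtgAAGATGGCGgtggccagggc
NDUFAF8, chr17:81239317-81239346, plus strand: ggacggacctAAGATGGCGgcctccagggg
The 7 genes ranged from 29.5 TPM (NDUFA9) to 561 TPM (NDUFB8), with a median of 149 TPM beside 148 TPM for the 33 others. NDUFS7 was the 1 member with both the NRF1 and the YY1 letters.

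The ETS letters were in 2 of 40 members (5.0%), beside 4.95% of all genes with a window and 7.93% of those in the expression table, so their share was close to that of other genes. They are shown to complete the matches found:
NDUFA13, chr19:19516204-19516233, plus strand: tccgcccgggaCCGGAAGTgtgggatactg
NDUFS1, chr2:206159584-206159613, minus strand: aggctggggccACTTCCGGcggaactgcgg
In NDUFS1 the match is on the strand opposite to the gene. The ESRRA letters were in 0 of 40 members, beside 0.432% of all genes with a window.

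**Figure D1:**
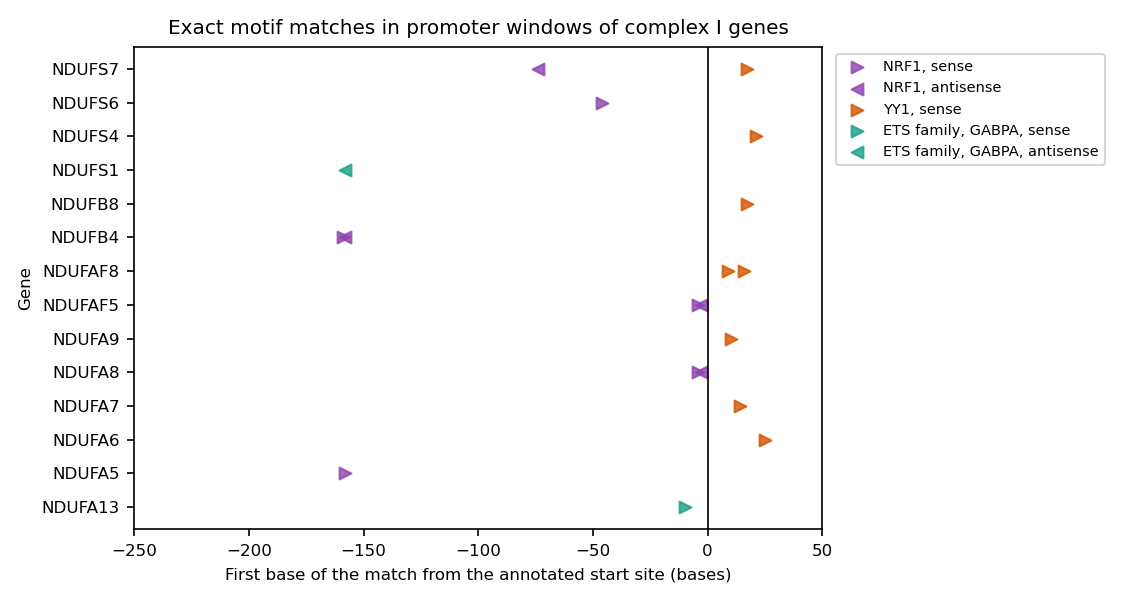
Position of each exact match in the RefSeq windows of the 14 members that hold one, as bases from the annotated start site at 0; arrows to the right are on the strand of the gene and arrows to the left on the other. The YY1 matches all lie between 9 and 25 bases after the start, and the NRF1 and ETS matches begin before it; NDUFAF8 has 2 YY1 arrows because its windows have different starts.

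Among the 7 core subunits, 6 had similar levels, between 162 and 258 TPM, a range of 1.59-fold, and NDUFS1 was far lower by TPM. NDUFS7 (chr19:1383907-1395584) and NDUFS8 (chr11:68030681-68036644) carry the iron-sulphur clusters nearest to ubiquinone. NDUFS7 had 250.03, 258 and 267 TPM in replicates 1, 2 and 3. NDUFS8 had 191, 189 and 209 TPM. By TPM their libraries did not overlap, with NDUFS7 the higher gene. NDUFS3 (chr11:47579074-47584562), another subunit of the matrix arm, stood at 178, 167 and 188 TPM. By TPM, every library of NDUFS8 was above every library of NDUFS3. These orders depended on transcript length. With reads divided by median GENCODE lengths, as described below, NDUFS3 stood at 241, NDUFS8 at 222 and NDUFS7 at 167. With the shortest lengths the values were 158.2 for NDUFS3, 225 for NDUFS8 and 157.8 for NDUFS7.

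NDUFV1 (chr11:67606936-67612554) binds the flavin that takes electrons from NADH, and NDUFV2 (chr18:9102699-9134341) is its iron-sulphur partner. NDUFV1 had 204, 191 and 205 TPM. NDUFV2 had 172, 157 and 157 TPM, lower than NDUFV1 in each library. NDUFS1 (chr2:206114817-206159444), which carries several iron-sulphur clusters, had 30.03, 28.7 and 27.6 TPM (28.8 ± 1.23). It ranked 40 of 45 members by TPM. NDUFS7, the highest of the core, exceeded it by 8.98-fold in mean TPM.

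The size of that gap depended on the transcript length used, and which transcripts were expressed was not tested. NDUFS1 had 4134, 4300 and 4222 estimated reads, which put it at rank 4 of 45 by reads. The length implied by the deposited reads and FPKM was 11608 bases, whereas the 7 protein-coding transcripts of NDUFS1 in GENCODE release 29 have a median of 2394 and a maximum of 11819 bases. When the reads were divided by each gene's median GENCODE length and scaled to the same total as TPM, NDUFS1 stood at 131 ± 5.28. On that scale the core subunits spanned 1.85-fold, from 131 for NDUFS1 to 241 for NDUFS3, in place of 8.98-fold by TPM. Of the other members, 2 also had an implied length over 2 times the GENCODE median: NDUFB5, which went from 53.8 TPM to 200.1 on the rescaled scale, and NDUFC2, which went from 50.6 to 179. These genes were picked out after their values were seen. The count of 3 of 45 compares with 8.35% of the 11337 genes with at least 50 reads.

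NDUFA11 moved the other way, from 382 TPM to 88.3 on the rescaled scale, with an implied length of 530 bases beside a GENCODE median of 2154. NDUFA9 had an implied length of 8308 bases, while its annotated transcripts run from 642 to 8363. Its 29.5 TPM became 51.0 with the median length and 224 with the shortest. Each scale is set by the lengths of all genes, so a change of level is not the effect of a gene's own length alone. NDUFA4, with 1 annotated transcript, went from 272 TPM to 238 with the median length and 149 with the shortest. Across the 45 members, TPM fell with implied length (Spearman's rho -0.65), as it did across the 7577 genes with a mean of 10 TPM or more (rho -0.45), and length enters the TPM itself. Levels by TPM and by the rescaled measure had a rho of 0.74 over the members. These correlations are across genes, which are not independent replicates.

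**Figure D2:**
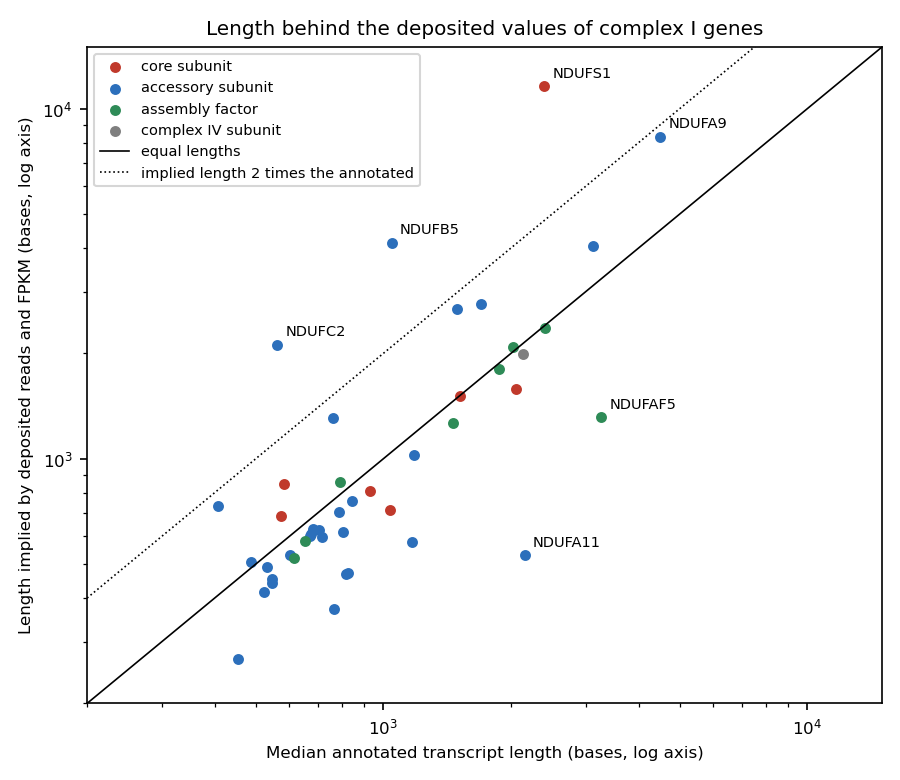
Length implied by the deposited reads and FPKM against the median GENCODE length of each member, in bases on log axes; each point is 1 gene, the solid line marks equal lengths and the dotted line an implied length of 2 times the annotated. NDUFS1, NDUFB5 and NDUFC2 lie above the dotted line, NDUFS1 with 11608 bases against 2394, and NDUFA11 lies far below the solid line.

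The 29 accessory subunits ranged more widely than the 7 core subunits, 24.5-fold by TPM from NDUFV3 to NDUFA13 beside 8.98-fold. A range over more genes tends to be wider, and the classes were not matched for number. With median GENCODE lengths the accessory range was 15.2-fold, from NDUFV3 to NDUFB8, and with the shortest lengths 7.83-fold. The core ranges on these scales were 1.85-fold and 2.54-fold. NDUFA13, also known as GRIM-19, is a membrane-spanning subunit and was the highest member by TPM, with 642, 626 and 654 TPM in replicates 1, 2 and 3 (640.4 ± 14.2), rank 198 of all genes. NDUFS5 is a small subunit on the intermembrane space side, and it followed with 579.8, 620.0 and 635 TPM. NDUFB8, of the distal part of the membrane arm, had 547, 532 and 603 TPM. The libraries of NDUFA13 and NDUFS5 overlapped, and so did those of NDUFS5 and NDUFB8, so these 3 had no firm order between neighbours. Their order also depended on length: with median GENCODE lengths NDUFB8 stood at 483, NDUFS5 at 465 and NDUFA13 at 344. NDUFA11, a membrane subunit next in order at 389.8, 379 and 379 TPM, lay below NDUFB8 in every library, with the dependence on length given above.

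At the lower end stood NDUFV3 with 26.7, 27.4 and 24.3 TPM, a small subunit of the NADH-binding part. NDUFA9, which contributes to the region between the matrix and membrane arms, had 28.8, 29.7 and 29.95 TPM. NDUFA3 had 38.8, 37.2 and 35.7 TPM, and NDUFA5, which sits on the matrix arm, had 46.0, 43.4 and 41.1 TPM. By TPM the libraries of NDUFA5 and NDUFA3 did not overlap. With median GENCODE lengths they were close, NDUFA5 at 66.5 ± 3.74 and NDUFA3 at 62.8 ± 2.61. With the shortest lengths NDUFA3 was the higher, at 60.0 beside 49.6. The other 21 accessory subunits lay between 50.6 TPM (NDUFC2) and 273 TPM (NDUFA1). NDUFAB1, the mitochondrial acyl carrier protein, also serves fatty acid and iron-sulphur cluster synthesis outside the complex. It had 185, 189 and 187 TPM, close to the core median.

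Of all 45 members in order of mean TPM, 16 of the 44 neighbouring pairs had libraries that did not overlap, so most neighbours could not be ordered. Some members have pseudogene copies in the genome. By symbol, RefSeq lists 66 pseudogenes for 20 of the 45, with 12 each for NDUFB4 and NDUFA5 and 7 for NDUFS5. How similar their sequences are to the members was not measured. No source used here says how reads shared with such copies were assigned, so the levels of these genes carry that uncertainty.

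By structural module, the Q module, which carries electrons to ubiquinone, had the highest median at 196 TPM ± 10.9 over 5 genes. The distal membrane arm, by the 10 of its genes included here, followed at 186 ± 2.67. The N module, which oxidises NADH, stood at 155 ± 11.6 over 8 genes, and the proximal membrane arm at 119 ± 2.74 over 8 genes. The remaining 5 subunits had 149 ± 6.02. Highest and lowest module differed by 0.73 on the log2(TPM + 1) scale, less than the range of genes within any of them. With the rescaled lengths the difference was 0.46.

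NDUFA4, now assigned to complex IV, was given apart. It had 276, 264 and 276 TPM and the most reads of any member, with a mean of 6828. Its paralog NDUFA4L2, known as a hypoxia-responsive gene, had 15.7, 27.2 and 25.3 TPM. The NDUFA4 to NDUFA4L2 ratio was 12.7 ± 4.26 and ran from 9.70 to 17.6 over the libraries, which follows the low value of NDUFA4L2 in replicate 1.

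The 8 assembly factors spanned 9.88-fold. NDUFAF2 was the highest, with 113, 118 and 107 TPM. It is the paralog of the accessory subunit NDUFA12, which replaces it in the complex late in assembly. NDUFA12 had 161, 153 and 129 TPM, and the ratio of NDUFAF2 to NDUFA12 was 0.766 ± 0.0622. NDUFAF2 was lower than NDUFA12 in all 3 libraries.

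NDUFAF3 and NDUFAF4 act together in the early assembly of the Q module. NDUFAF3 had 55.4, 50.3 and 52.3 TPM and NDUFAF4 had 21.96, 22.9 and 21.4 TPM. NDUFAF3 was thus 2.39-fold ± 0.172 higher. NDUFAF5 hydroxylates NDUFS7, and NDUFAF8 stabilises NDUFAF5. NDUFAF8 had 88.8, 79.4 and 74.0 TPM, and NDUFAF5 had 22.1, 19.8 and 22.1 TPM. The ratio of NDUFAF8 to NDUFAF5 was 3.79 ± 0.379, and 7.99 ± 0.810 with median GENCODE lengths. In neither pair did the libraries of the partners overlap.

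NDUFAF7 is a methyltransferase of complex I assembly and had 28.6, 28.6 and 28.7 TPM. NDUFAF1, of the assembly complex for the membrane arm, had 34.7, 36.5 and 31.0 TPM. By TPM, every library of NDUFAF1 was above every library of NDUFAF7. With median GENCODE lengths they were level, NDUFAF1 at 27.7 ± 2.06 and NDUFAF7 at 27.6 ± 0.0564. With the shortest lengths NDUFAF7 was the higher, at 18.8 beside 17.3. NDUFAF6 was the lowest of all members by TPM, with 12.1, 11.2 and 10.9 TPM and 259.27 to 259.62 estimated reads per library. Its libraries lay below all those of NDUFAF5, its neighbour in the order, but with median GENCODE lengths the order was reversed, with NDUFAF5 at 8.06 ± 0.411 and NDUFAF6 at 10.3 ± 0.556. The counting error of a gene with so few reads is larger than that of the subunits.

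The members differed little between libraries. The coefficient of variation (CV, the SD as a percentage of the mean) had a median of 4.46% over the members, beside 6.11% over the 7577 genes with a mean of 10 TPM or more and 6.08% over the 6989 genes within the members' range of levels. It was 4.28% for core subunits, 4.17% for accessory subunits and 5.44% for assembly factors. A CV above 10% was seen in 1 of 45 members, beside 23.4% of the 7577 genes. These comparisons were not matched for level: 26 of 45 members reached 100 TPM in all 3 libraries, beside 1335 of all 17170 genes. The 3 widest were NDUFA12 at 11.1%, low in replicate 3, NDUFAF8 at 9.25%, high in replicate 1, and NDUFAF1 at 8.32%, low in replicate 3. The 3 narrowest were NDUFAF7 at 0.0533%, NDUFAB1 at 0.979% and NDUFA8 at 1.04%. NDUFAF7 had the lowest CV of all 7577 genes, but its reads alone imply a counting error of 3.64%, so a value this small is below what the depth can resolve. The same holds for 11 of 45 members, whose CV was below their counting error, which had a median of 2.70%.

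**Figure D3:**
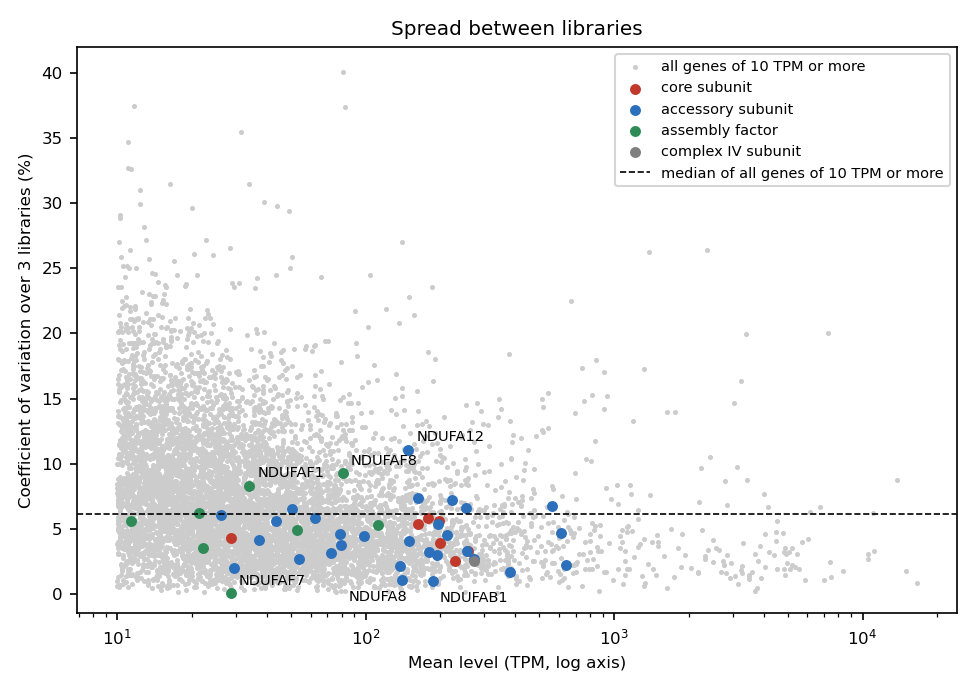
Coefficient of variation over the 3 control libraries in percent against mean level in TPM on a log axis, for the members by role and for all genes with a mean of 10 TPM or more in grey. Most members lie below the dashed median of all these genes, 6.11%, and 9 of 45 lie above it; NDUFA12 is the highest at 11.1%.

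Library by library, 17 of 45 members were higher in replicate 2 than in replicate 1, beside 33.6% of the 7577 genes. In replicate 3, 20 of 45 were above replicate 1, beside 34.8%, and 25 of 45 were above replicate 2, beside 41.5%. In replicate 3, core subunits were above replicate 1 in 5 of 7 cases and above replicate 2 in 6 of 7. For assembly factors these counts were 1 of 8 and 3 of 8. Replicate 2 was above replicate 1 in 2 of 7 core subunits and 4 of 8 assembly factors, so the classes did not differ in the same direction in every pair. The median log2 differences of the members were small, at -0.04, -0.03 and 0.00 for the pairs in this order, beside -0.05, -0.07 and -0.03 for the 7577 genes. The extremes between replicates 3 and 1 were NDUFA12 at -0.31 and NDUFB11, a membrane subunit, at 0.20.

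Assembly of complex I also needs factors outside the NDUFAF series, and all 16 of those listed were detected. Their median was 46.6 TPM ± 1.39, above the 31.3 ± 1.41 of the NDUFAF genes. COA1, a factor of the early membrane arm, was the highest with 202, 187 and 196 TPM. NUBPL, which is needed for iron-sulphur clusters of complex I, was the lowest with 7.54, 7.37 and 5.78 TPM. The partners of NDUFAF1 in the membrane arm assembly complex, named here after their values were seen, differed in level. ECSIT had 121, 137 and 153 TPM, TMEM126B had 64.9, 59.6 and 63.8, and ACAD9 had 20.6, 20.9 and 21.4. The libraries of these 3 genes did not overlap, and NDUFAF1 lay between TMEM126B and ACAD9.

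Next to the other complexes of oxidative phosphorylation, complex I subunits had a median of 171 TPM ± 4.26. All 4 genes of complex II were detected, with a median of 154 ± 4.66, from SDHA, the flavoprotein, at 86.5 to SDHD, a membrane anchor, at 186. For complex III, 9 of 9 were detected with a median of 145 ± 6.98, from UQCRB at 44.9 to UQCRH, the hinge subunit, at 669. Complex IV (11 of 11, NDUFA4 included) stood at 414 ± 20.4, from COX7B at 68.4 to COX4I1 at 1054. Complex V (17 of 17), the ATP synthase, stood at 264 ± 11.2, from the small subunit ATP5F1E at 66.6 to the catalytic ATP5F1B at 1925. The lowest genes of complexes III, IV and V had implied lengths well above their GENCODE medians, and their low TPM depends on those lengths. The implied length was 8413 bases against 645 for UQCRB, 2395 against 605 for COX7B and 3561 against 1878 for ATP5F1E. By TPM, complexes II and III thus stood below complex I subunits and complexes IV and V above them. Against the median of all 45 members, assembly factors and NDUFA4 included, the log2 differences were 0.06 for complex II, -0.02 for III, 1.49 for IV and 0.84 for V. The order of the complexes moved with length. With median GENCODE lengths these differences were 0.60, 0.87, 1.48 and 1.21. With reads not divided by length they were 1.02, 1.32, 0.97 and 1.24, where complex IV was the lowest of these complexes.

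**Figure D4:**
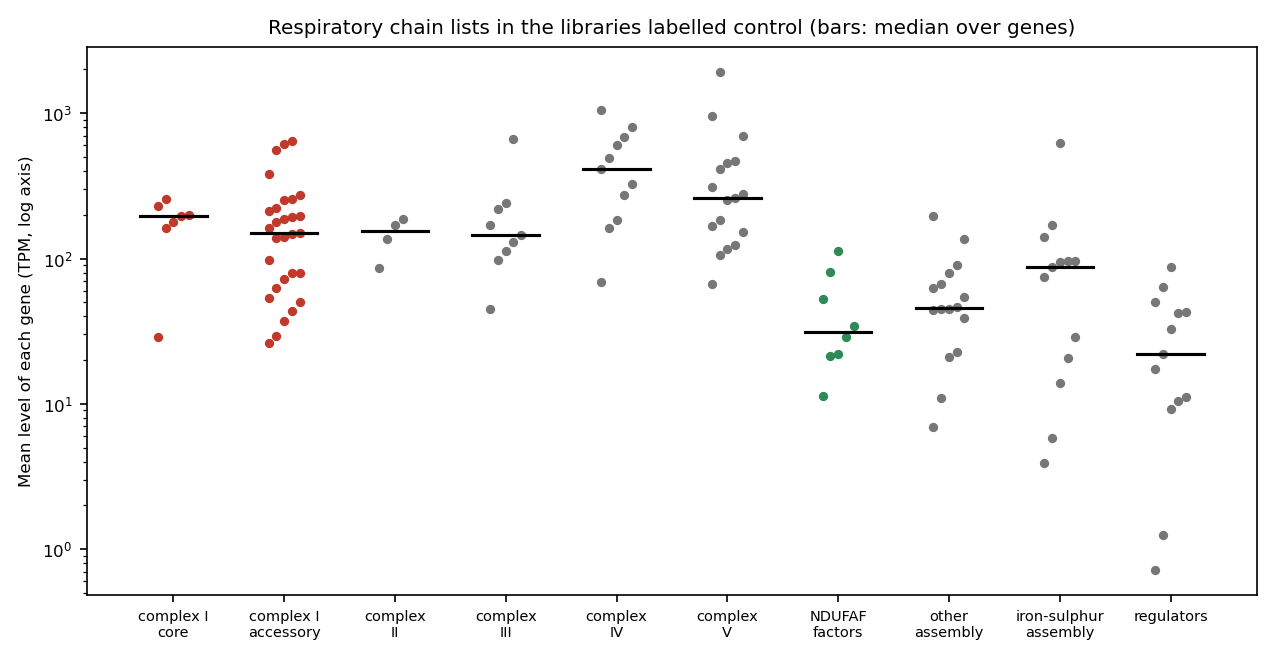
Mean level of each gene, in TPM on a log axis, in the complex I classes and in the lists of related genes, with each list's median as a bar; each point is 1 gene. Complexes IV and V have medians of 414 and 264 TPM, above the core subunits at 195. The regulators, a list that includes the mitochondrial TFAM, TFB1M, TFB2M and POLRMT, have the lowest median of those plotted, 21.9.

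Factors that regulate nuclear genes of respiration were listed together with TFAM, TFB1M, TFB2M and POLRMT, which act in mitochondria. This list was expressed at lower levels, with 12 of 13 genes detected. Its median of 21.9 TPM ± 0.629 is the level of POLRMT itself. NRF1, whose letters are shown above, had 10.6, 10.3 and 10.3 TPM. YY1 had 51.0, 49.3 and 49.2 TPM. GABPA, the DNA-binding part of its heterodimer, had 12.3, 11.2 and 9.90 TPM. Its partner GABPB1 was far higher at 93.2, 82.1 and 85.6 TPM, and the alternative partner GABPB2 had 17.4 ± 2.79. The nuclear receptor ESRRA stood at 41.9 ± 2.05.

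The coactivators of these factors were unequal. PPRC1 had 32.7 TPM ± 1.95, PPARGC1B had 1.25 ± 0.194 and PPARGC1A, the best known of them, had 0.900, 0.720 and 0.530 TPM with 44.9 to 62.0 reads, the 1 regulator below 1 TPM. Its implied length of 6216 bases is above its GENCODE median of 2385, and its log2 level relative to the median gene went from -2.19 to -1.67 with that length and -1.06 with the shortest. The listed genes that serve the expression of mitochondrial DNA, where the remaining core subunits are encoded, were all detected. TFAM stood at 42.8 ± 4.07, TFB2M at 63.2 ± 1.38, TFB1M at 9.16 ± 0.864 and the polymerase POLRMT at 21.9 ± 0.629. TFAM and TFB2M were above POLRMT in every library, and TFB1M was below it.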

How the data were processed

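RNA was measured in 6 libraries, of which the 3 control libraries were analysed. Per the submitters' processing notes, the tools were HISAT2, StringTie and DESeq2 and the build GRCh38, without versions or roles. Annotation and gene filters were not given in the sources used here. In their table the authors deposited TPM per library, FPKM and read counts, per the file headers. The deposited counts are estimated counts, with 24.0% whole numbers. The FPKM deposited by the authors sum to different totals per library. Columns were given to samples by name; 15 columns of per-sample values matched no sample or were not needed and were not used.

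Levels are TPM, or log2(TPM + 1); differences are between class medians within a library, given as mean ± SD over 3 libraries, with no test. Implied length is reads divided by FPKM and by the total of the library; rescaled levels used GENCODE release 29 transcript lengths (16916 genes). Counting error was taken as the reciprocal square root of the reads, and pools no other source of error. All 45 members matched RefSeq, whose positions are GRCh38.p14. Python 3.11.15, pandas 2.3.3, numpy 2.4.6 and matplotlib 3.10.9 were used. The core minus accessory difference and the median CV were tested on counts simulated with counting error only. The other calculations were not tested in this way.

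Members, classes and lists were chosen with earlier results of these data known. The genes named are core subunits, all NDUFAF genes, the 4 highest and 4 lowest accessory subunits, NDUFA4, NDUFAB1, NDUFA4L2, the 3 widest and 3 narrowest in CV, the ends of each list and all regulators; other names were chosen after their values were seen. Alternatives were FPKM, reads, other lengths, pseudocounts, means, class definitions, omission of ribosomal protein genes and of each library. Protein features were not run. Some items are not reported here.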

Additional observations from a re-analysis of the deposited data

How the results depend on the processing

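The order of core, accessory and assembly medians was the same under every alternative run, but the sizes moved. Main differences were 0.37 (core minus accessory), 2.60 (core minus assembly) and 2.23 (accessory minus assembly), on the log2 scale. Reads without division by length gave 0.74, 2.01 and 1.28. Means of log2 values gave 0.18, 2.07 and 1.89. The shortest GENCODE length, chosen after seeing the data like the median length, gave 0.16 for core minus accessory and 2.47 for accessory minus assembly, and the median length gave 2.11 for the latter. Adding the other assembly factors to the NDUFAF genes gave 2.09 against the core and 1.72 against accessory subunits. For accessory minus assembly, a pseudocount of 0.1 gave 2.26, and NDUFA4 counted as accessory gave 2.30. The difference between highest and lowest module, 0.73, became 0.53 with reads, 0.46 with the median and 0.64 with the shortest length. The Q module was highest under each, and the lowest was the distal membrane arm with reads and the N module with the shortest length.

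Leaving out each library in turn gave 0.30 to 0.41, 2.54 to 2.65 and 2.22 to 2.25 for the 3 differences. The median CV was then 3.09% to 3.92%, but over 2 libraries, so these values cannot be compared directly with the 4.46% over 3. Of 59 named genes, placed against the median of all genes, 6 values changed sign: NDUFAF6 from 0.66 to -0.21 with reads and -0.014 with the shortest length, GABPA from 0.63 to -0.11 with the shortest length, GABPB2 from 1.22 to -0.19 with the median length, and TFB1M from 0.37 to -0.31 and NDUFA4L2 from 1.56 to -0.14 with reads. The cause was not tested beyond the change of length or its omission. With 1 or 2 fewer letters per motif, members and genes of the table held them in 20% and 5.43% (NRF1), 25% and 8.28% (YY1), 17.5% and 18.5% (ETS) and 10% and 4.09% (ESRRA). No paired analysis was possible because knockout libraries matched no column of the table. Depth limits the CV of members near or below their counting error.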

Other observations

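Complex I holds more iron-sulphur clusters than any other complex of the chain, and the machinery that makes them was detected throughout, 13 of 13 genes, with a median of 87.2 TPM ± 4.89 (SD, n = 3). HSPA9, the mitochondrial chaperone that helps to transfer clusters, was the highest with 632, 629 and 617 TPM. IBA57, a late-acting factor, was the lowest with 4.11, 3.99 and 3.63 TPM. Genes of the first step, named after their values were seen, were unequal: the scaffold ISCU had 180, 177 and 150 TPM, LYRM4 had 90.8, 95.2 and 103, and the desulphurase NFS1 had 14.5, 14.7 and 12.8. The libraries of these 3 genes did not overlap. NDUFAB1, which also joins the complex of NFS1 and LYRM4, was above all of them at 187 ± 1.83.

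Of forms specific to tissue or hypoxia, 2 of 4 listed were analysed. COX4I2, the alternative to COX4I1, had 1 read in replicate 2 and was at 0 in the other libraries. NDUFC2-KCTD14, a readthrough transcript that shares sequence with NDUFC2, had 0.840, 1.19 and 1.46 TPM, and its reads cannot be told apart from those of NDUFC2 where the sequence is common.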
